A study of Mus musculus with 16 samples.

Results

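De novo lipogenesis turns carbohydrate carbon into fatty acids in the cytosol of the liver cell. Citrate exported from mitochondria is cleaved to acetyl-CoA, which is carboxylated to malonyl-CoA, built into palmitate, and then elongated and desaturated. The pathway is known to be switched on after feeding by insulin, through SREBP-1c, and by glucose metabolites, through ChREBP, whereas glucagon signalling through cAMP is known to oppose it. The 10 genes described here were chosen as those whose identifier maps to Srebf1 and Mlxipl, which encode these transcription factors, or to Acly, Acaca, Acacb, Fasn, Scd1, Elovl6, Me1 and Thrsp, which encode enzymes and a cofactor under their control. All 10 of the 10 were found among the 55487 gene identifiers of the deposited table, and all 10 were among the 11839 that reached a mean of 1 TPM and were tested. TPM is the abundance of a transcript corrected for its length and scaled to a fixed total.

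The livers came from 16 male C57BL6/J mice, all made obese on a 60 kcal% high-fat diet for 8 weeks from 10 weeks of age. They were then given either of a pair of high-fat diets, with standard protein (SP, D08091803) or with high protein (HP, D08091801). Each diet was combined with a daily subcutaneous injection for 22 days of vehicle or of 2.5 nmol/kg G108, a long-acting agonist of the glucagon receptor. Each of the 4 combinations held 4 mice, named vehicle SP, G108 SP, vehicle HP and G108 HP below, and each mouse gave 1 library. No lean or chow-fed mice were included, and tissue was taken after a 4 h fast on day 25 by the sample records. The study's methods give another age, another length of prior diet and another last day. The comparisons ask whether G108 altered the lipogenic transcripts on each diet, whether dietary protein altered them with and without G108, and how far mice of the same group differed.

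The values deposited are TPM, in which each gene's reads are divided by its length and every library is brought to the same total. Between 27.8 and 45.03 M reads per library were recovered from the steps in the low values. Mup genes, which encode the major urinary proteins, held 35.2% to 49.04% of the TPM in the vehicle-treated mice and 17.5% to 29.3% in the G108-treated mice. Over all genes tested, the log2 fold change for G108 against vehicle had a median of 0.60 on SP and 0.09 on HP. Each comparison is therefore given from TPM as deposited and after median-of-ratios scaling, which brings the typical gene of every library to the same level and moved these medians to -0.01 and 0.00. A pair of libraries stood apart from the rest. Vehicle SP mouse 4 had the steepest dependence of its values on the GC content of the transcript, at 0.084 log2 units per 10% of GC. Vehicle SP mouse 3 was nearly as steep in the opposite direction, at -0.078. G108 HP mouse 3 had 37.3% of its TPM from the mitochondrial genome, against 13.8% to 27.4% in the others.

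The tissue label was checked with marker lists. The summed TPM of 6 hepatocyte markers lay between 18406 and 60220. Fat tissue also makes the lipogenic enzymes, so adipocyte markers bear on every member. The sum of 7 of them lay between 2.41 and 4.69 TPM in vehicle SP, 3.09 and 5.04 in vehicle HP, 3.24 and 3.95 in G108 SP, and 3.12 and 3.79 in G108 HP. Lep was at 0 in all 16 libraries, and Plin1, Retn and Lep all stayed under 0.1 TPM. The other markers of this list were higher. Lipe lay between 1.73 and 3.38 TPM and Fabp4 between 0.32 and 1.32 TPM, while Cfd reached 1.19 and Adipoq 0.21 TPM. As in any bulk tissue, fewer cells that make a transcript and less transcript per cell cannot be told apart.

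The members lie on 6 chromosomes of GRCm38 (GENCODE gene models). The transcription factors are Srebf1 (ENSMUSG00000020538, chr11:60199089-60222581, minus strand) and Mlxipl (ENSMUSG00000005373, chr5:135089890-135138382, plus strand). Precursor supply is covered by Acly, the ATP citrate lyase that makes cytosolic acetyl-CoA (ENSMUSG00000020917, chr11:100476353-100528000, minus strand), and Me1, the cytosolic malic enzyme that yields NADPH (ENSMUSG00000032418, chr9:86581371-86695953, minus strand). Malonyl-CoA is made by the acetyl-CoA carboxylases encoded by Acaca (ENSMUSG00000020532, chr11:84129672-84401651, plus strand) and Acacb (ENSMUSG00000042010, chr5:114146535-114250761, plus strand). Palmitate is made by fatty acid synthase, encoded by Fasn (ENSMUSG00000025153, chr11:120805846-120824547, minus strand), elongated by the product of Elovl6 (ENSMUSG00000041220, chr3:129532355-129638495, plus strand) and desaturated by that of Scd1 (ENSMUSG00000037071, chr19:44394455-44407879, minus strand). Thrsp, or Spot 14, encodes a nuclear and cytosolic protein that raises lipogenic flux and responds to thyroid hormone (ENSMUSG00000035686, chr7:97412938-97417730, minus strand).

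The 250 bases before the start sites of Acly, Fasn and Thrsp are shown because the ratio of Acly to Fasn is compared below and because Thrsp was the member called on SP after scaling. They are from RefSeq (GRCm38.p6), 5' to 3' on the coding strand, which is the minus strand for each: chr11:100528001-100528250 for Acly, chr11:120824548-120824797 for Fasn and chr7:97417551-97417800 for Thrsp. Capitals mark a CCAAT box (CCAAT, bound by NF-Y) or a GC box (GGGCGG, bound by Sp1) on either strand. The Acly and Fasn windows lie directly outside the gene models given above. The GENCODE model of Thrsp reaches chr7:97417730, beyond the RefSeq start site. Part of the Thrsp window, with both of its CCAAT boxes, therefore lies inside that model.

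Acly: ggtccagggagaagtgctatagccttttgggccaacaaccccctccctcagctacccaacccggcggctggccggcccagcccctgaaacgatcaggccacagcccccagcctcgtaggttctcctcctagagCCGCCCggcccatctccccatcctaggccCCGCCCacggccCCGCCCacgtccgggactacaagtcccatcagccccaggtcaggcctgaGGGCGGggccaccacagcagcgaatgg

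Fasn: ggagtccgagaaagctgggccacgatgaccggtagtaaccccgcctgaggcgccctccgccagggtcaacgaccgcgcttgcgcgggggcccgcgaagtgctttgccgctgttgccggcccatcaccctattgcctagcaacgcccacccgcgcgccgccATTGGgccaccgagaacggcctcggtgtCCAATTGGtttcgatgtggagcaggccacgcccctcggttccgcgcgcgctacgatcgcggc

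Thrsp: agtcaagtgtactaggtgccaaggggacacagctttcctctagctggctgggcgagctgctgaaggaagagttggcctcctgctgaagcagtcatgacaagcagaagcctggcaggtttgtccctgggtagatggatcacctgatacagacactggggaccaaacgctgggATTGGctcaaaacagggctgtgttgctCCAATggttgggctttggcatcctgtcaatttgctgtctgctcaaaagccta

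In these windows Acly held 4 GC boxes and 0 CCAAT boxes, Fasn held 3 CCAAT boxes and Thrsp 2, in both of the latter with 0 GC boxes. One of the Fasn CCAAT boxes overlaps a copy on the other strand. A promoter entry was found for 9 of the 10 members (13 entries, all but Scd1). Of these 13 entries, 7 held at least 1 CCAAT box (6 members), 5 a GC box (4 members), 1 an E-box (CACGTG) and 1 a sterol response element (TCACNCCAC). Of 32851 RefSeq promoters of the same length, 33.8% held a CCAAT box, 32.7% a GC box, 6.02% an E-box and 1.05% the sterol element. Such a match describes letters in a window and is not a measured binding site.

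Levels of the members spanned about 2 orders of magnitude in TPM, a scale that is already per length of transcript. Averaged over 16 mice, Scd1 was the most abundant at 334 TPM, followed by Thrsp at 122, Mlxipl at 94.1, Srebf1 at 87.7, Fasn at 49.6, Acly at 33.3, Me1 at 22.2, Elovl6 at 11.2, Acaca at 3.69 and Acacb at 3.57. Some neighbours in this order were separated in every mouse: Srebf1 was above Fasn in 16 of 16, and Elovl6 above Acaca in 16 of 16. Others were not, since Thrsp was above Mlxipl in 11 of 16 mice, Mlxipl above Srebf1 in 10 of 16 and Acaca above Acacb in 8 of 16. The order also moved between groups. Mlxipl was above Srebf1 in 4 of 4 vehicle SP mice, whereas Srebf1 was above Mlxipl in 3 of 4 G108 SP mice.

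**Figure D1:**
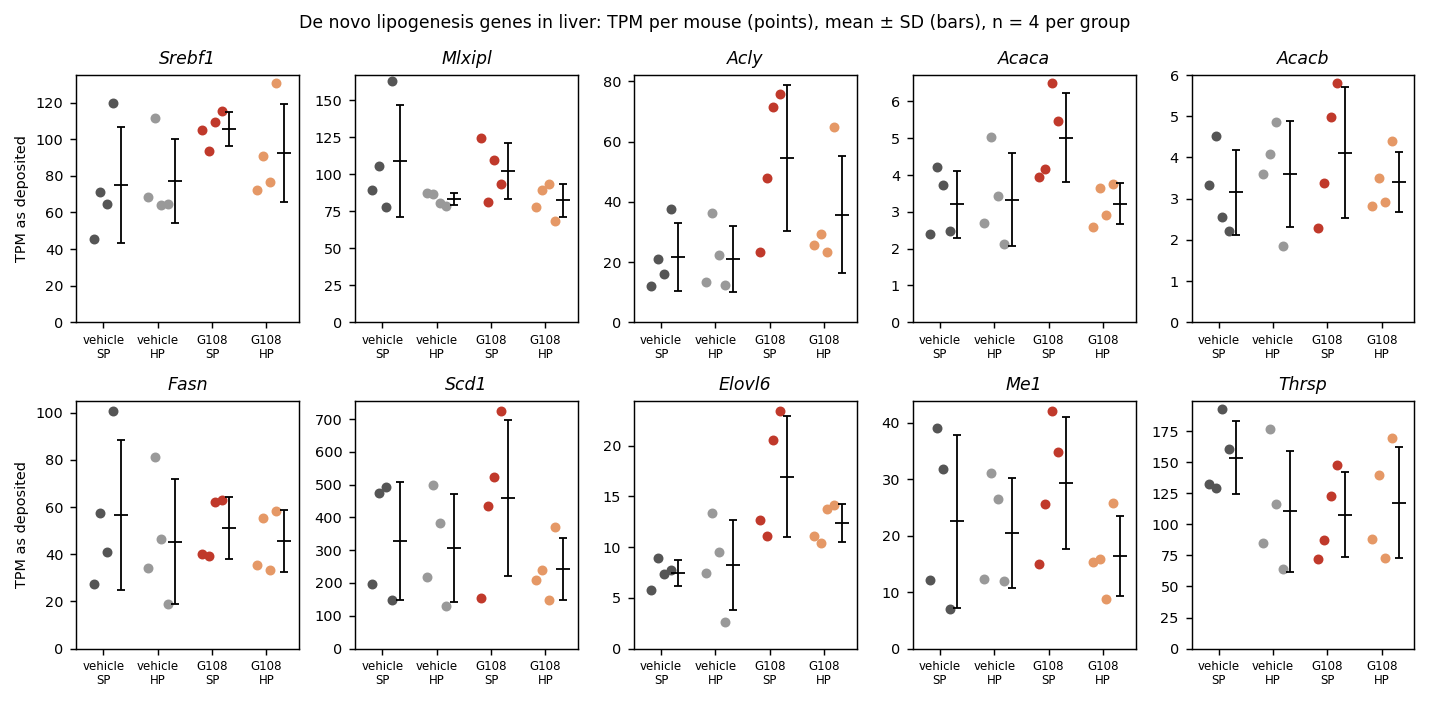
TPM as deposited (vertical axes, from 0) of each of the 10 members in livers of the 4 groups, with 1 point per mouse and bars for mean ± SD (n = 4 per group). Elovl6 in the 4 G108 SP mice lies above all 4 vehicle SP mice, whereas the groups overlap for Fasn, Mlxipl and Scd1.

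On SP, G108 raised the TPM of 3 members, Acly, Elovl6 and Acaca, and 0 of the 10 fell (limma, adjusted p under 0.05). In this comparison 77.0% of all genes tested were called higher and 0.608% lower, and the members' median log2 fold change of 0.50 lay beside 0.60 for all genes. After median-of-ratios scaling the picture differed, with 0 members called higher and 1, Thrsp, called lower, where 1.33% of all genes were called higher and 1.39% lower. With that scaling 8 of the 10 fold changes were below 0, with a median of -0.25 beside -0.01 for all genes.

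**Figure D2:**
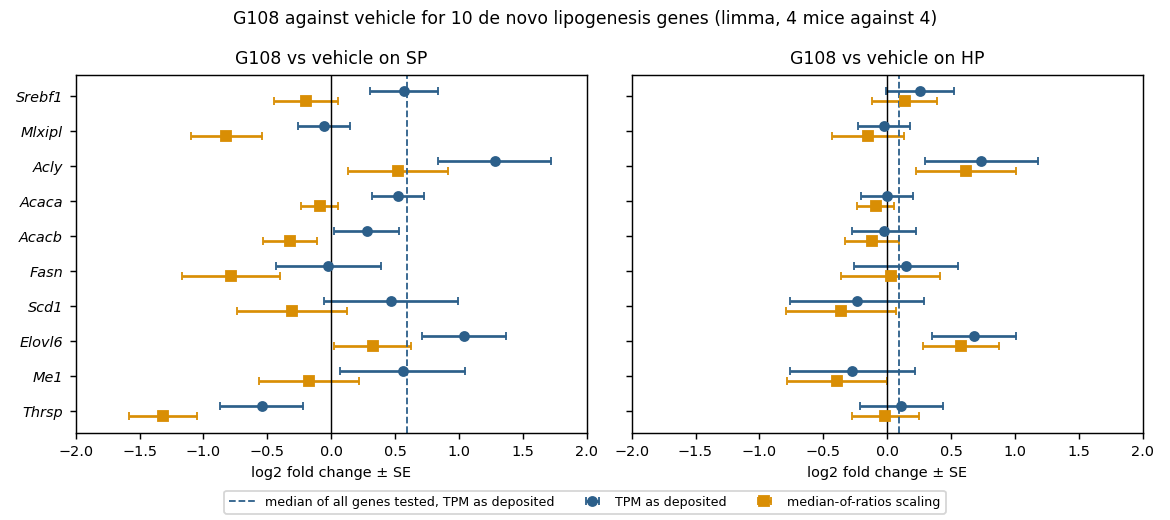
Log2 fold change ± SE (horizontal axis, log2(TPM + 1) scale, limma) of each member for G108 against vehicle on SP (left) and HP (right), from TPM as deposited (circles) and after median-of-ratios scaling (squares). The dashed line marks the median of all genes tested, 0.60 on SP and 0.09 on HP. On SP, Acly and Elovl6 are the only members with squares right of 0.

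Acly, at the entry of the pathway, was measured at 12.2, 21.03, 15.99 and 37.6 TPM in the vehicle SP mice and at 23.2, 47.8, 71.6 and 75.7 TPM in the G108 SP mice. Of the treated mice, 3 were above every vehicle mouse, and mouse 1 lay within the vehicle range. The log2 fold change was 1.28 (SE 0.44, adjusted p = 0.0163, limma). It was 0.52 after median-of-ratios scaling (SE 0.39, adjusted p = 0.475, limma), so that the call did not hold relative to the typical gene. The call on deposited TPM also did not hold without vehicle SP mouse 1 (1.06, adjusted p = 0.0590, limma), G108 SP mouse 3 (1.104, adjusted p = 0.0524, limma) or G108 SP mouse 4 (1.08, adjusted p = 0.0535, limma).

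Elovl6, the elongase that takes palmitate to stearate, stood at 5.82, 8.88, 7.38 and 7.76 TPM with vehicle and at 12.7, 11.1, 20.6 and 23.4 TPM with G108 on SP. The lowest treated mouse was above the highest vehicle mouse, as for 56.0% of all genes tested. The log2 fold change was 1.04 (SE 0.33, adjusted p = 0.0108, limma), and 0.32 after median-of-ratios scaling (SE 0.30, adjusted p = 0.560, limma). The call on deposited TPM held with each mouse left out.

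Acaca, which encodes the cytosolic carboxylase that commits carbon to the pathway, lay between 2.40 and 4.21 TPM with vehicle and between 3.94 and 6.51 TPM with G108 on SP. Its log2 fold change of 0.52 (SE 0.21, adjusted p = 0.0309, limma) became -0.09 with median-of-ratios scaling (SE 0.14, adjusted p = 0.735, limma). The call did not hold without vehicle SP mouse 1, vehicle SP mouse 4, G108 SP mouse 3 or G108 SP mouse 4, with log2 fold changes of 0.41 to 0.48 (adjusted p = 0.0715 to 0.102, limma). Acacb, whose product makes the malonyl-CoA that restrains mitochondrial fatty acid import, had a log2 fold change of 0.28 (SE 0.25, adjusted p = 0.317, limma) and one of -0.32 with scaling (SE 0.21, adjusted p = 0.420, limma). The ranges of its vehicle and G108 mice on SP overlapped, from 2.21 to 4.52 and from 2.28 to 5.82 TPM.

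Fasn, the last step to palmitate, did not pass the test on SP with either scaling. It was at 27.4, 57.4, 40.9 and 100.9 TPM with vehicle and at 39.9, 39.2, 62.1 and 62.9 TPM with G108 on SP. All 4 treated mice lay within the vehicle range. The log2 fold change was -0.02 (SE 0.41, adjusted p = 0.957, limma) and -0.79 with median-of-ratios scaling (SE 0.39, adjusted p = 0.304, limma). The highest vehicle value was in vehicle SP mouse 4, the library with the steepest GC dependence, and without it the scaled value was -0.38 (adjusted p = 0.659, limma). When that dependence (the GC slope) was a covariate beside the scaling, Fasn was called lower (-1.03, adjusted p = 0.0396, limma).

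Thrsp was the member that was low with G108 on SP once the libraries were scaled. In deposited TPM it stood at 132.4, 129.3, 193.05 and 161 with vehicle and at 72.5, 87.2, 123.2 and 148 with G108. These groups overlapped, with 3 of 4 treated mice under the lowest vehicle mouse, and the log2 fold change was -0.55 (SE 0.32, adjusted p = 0.129, limma). After scaling, the values were 191.5, 134.1, 216.8 and 236.1 with vehicle against 61.9, 66.01, 80.2 and 101 with G108. The groups no longer overlapped, as for 4.69% of all genes in this direction, and Thrsp fell by 1.32 on the log2 scale (SE 0.26, adjusted p = 0.0141, limma). Without G108 SP mouse 2 the scaled value was -1.25 (adjusted p = 0.0511, limma), and with any other mouse left out the call held.

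Of the transcription factor genes, neither Srebf1 nor Mlxipl passed the test on SP with either scaling. Srebf1 was at 45.3, 71.04, 64.4 and 119.8 TPM with vehicle on SP and at 104.99, 93.4, 109.5 and 115.4 TPM with G108. The treated mice formed a narrow band that vehicle SP mouse 4 exceeded, with a log2 fold change of 0.57 (SE 0.27, adjusted p = 0.0596, limma). Without that library it was 0.82 (adjusted p = 0.00884, limma), and it also passed without vehicle HP mouse 2 (adjusted p = 0.0470, limma) or G108 HP mouse 4 (adjusted p = 0.0467, limma), which enter only through the shared spread. Relative to the typical gene Srebf1 was at -0.20 (SE 0.25, adjusted p = 0.681, limma). Mlxipl was at 89.2, 105.8, 77.8 and 162.6 TPM with vehicle and at 124.7, 80.9, 109.5 and 93.1 TPM with G108. Its groups overlapped in full, and its log2 fold change was -0.05 (SE 0.20, adjusted p = 0.811, limma), or -0.82 with scaling (SE 0.28, adjusted p = 0.148, limma). With scaling and the GC slope as a covariate it was called lower (-0.99, adjusted p = 0.0166, limma).

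Scd1, the stearoyl-CoA desaturase, and Me1 had wide ranges on SP. Scd1 was at 198, 474, 494 and 148 TPM with vehicle and at 154, 435, 524 and 726 TPM with G108 (log2 fold change 0.47, SE 0.52, adjusted p = 0.410, limma). Me1 was at 12.2, 39.03, 31.8 and 7.002 TPM with vehicle and at 14.98, 25.5, 42.1 and 34.8 TPM with G108 (log2 fold change 0.56, SE 0.49, adjusted p = 0.296, limma). In both genes vehicle mice 1 and 4 were low, vehicle mice 2 and 3 were high and G108 SP mouse 1 fell among the low ones, so neither difference exceeded the spread. With scaling, the log2 fold changes were -0.31 for Scd1 and -0.18 for Me1.

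On HP, 0 of the 10 members passed the threshold for G108 against vehicle with either scaling (limma), 0 had an unadjusted p under 0.05 with either, and voom on the recovered reads also called 0. Of all genes tested, 0.819% were called higher and 0.296% lower from deposited TPM, and 0.642% and 0.583% with scaling. An unadjusted p under 0.05 was found for 11.9% of them from deposited TPM and for 11.3% with scaling. Acly was at 13.4, 36.1, 22.4 and 12.4 TPM with vehicle and at 25.5, 29.2, 23.4 and 64.7 TPM with G108 on HP (log2 fold change 0.74, SE 0.44, adjusted p = 0.576, limma). Elovl6 was at 7.46, 13.4, 9.50 and 2.66 TPM with vehicle and at 11.1, 10.4, 13.7 and 14.1 TPM with G108 (0.68, SE 0.33, adjusted p = 0.432, limma). The groups overlapped for both, and these were the largest log2 fold changes of the members on HP. The other 8 lay between -0.27 for Me1 and 0.26 for Srebf1, and Thrsp was at 0.11 (SE 0.32, adjusted p = 0.972, limma).

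No member passed the test for dietary protein alone. For HP against SP with vehicle, 0 members were called with either scaling (limma, 0% of all genes called), 0 had an unadjusted p under 0.05 from deposited TPM and 1, Thrsp, with scaling, and voom called 0. Of all genes tested, 3.16% had an unadjusted p under 0.05 from deposited TPM and 3.94% with scaling. Thrsp lay between 64.4 and 177 TPM with vehicle on HP, against 129.3 to 193.05 on SP, with a scaled log2 fold change of -0.76 (SE 0.26, adjusted p = 0.832, limma). All 10 scaled log2 fold changes were below 0, from -0.76 for Thrsp to -0.03 for Acacb, with a median of -0.23 beside -0.0047 for all genes. With single mice left out, Srebf1 (up to 0.21), Acacb (up to 0.18), Elovl6, Acly, Me1 and Scd1 reached values above 0. Mlxipl, Acaca, Fasn and Thrsp stayed below 0. From deposited TPM the median was -0.03 and 4 of the 10 were above 0.

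With G108, HP against SP also gave 0 members past the threshold with either scaling (limma, 0% of all genes called, and 0 members by voom). From deposited TPM 1 member, Acaca, had an unadjusted p under 0.05, as did 5325 of the 11839 genes tested, and 0 did with scaling, where 639 of the 11839 did. Acaca was at 2.60, 3.63, 2.91 and 3.74 TPM on HP and at 3.94, 4.16, 6.51 and 5.46 TPM on SP, so that the groups did not overlap, as for 20.5% of all genes tested in this direction. Its log2 fold change was -0.50 (SE 0.21, adjusted p = 0.0907, limma) and -0.13 with scaling. Scd1 was at 210, 239.6, 147 and 371 TPM on HP and had a log2 fold change of -0.80 (SE 0.52, adjusted p = 0.209, limma). Me1 was at 15.2, 15.8, 8.80 and 25.8 TPM on HP and had one of -0.80 (SE 0.49, adjusted p = 0.185, limma). When libraries were weighted by their quality in limma, 4 members were called lower on HP: Scd1 (-1.25), Acly (-1.08), Me1 (-1.06) and Acaca (-0.61). With the same weights 71.1% of all genes tested were called lower.

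Whether G108 acted differently on the 2 diets was tested as an interaction. By limma 0 members passed with either scaling, and 0% of all genes did. From deposited TPM 0 members had an unadjusted p under 0.05, where 5685 of the 11839 genes tested did. With scaling 1 member did, where 854 of the 11839 did. That member, Thrsp, stood at 191.5, 134.1, 216.8 and 236.1 for vehicle and 61.9 to 101 for G108 on SP, but at 73.7 to 165.6 and 86.2 to 148 on HP. Its difference between diets was 1.30 (SE 0.37, adjusted p = 0.575, limma). Voom called 0 members, and quality weights called 2, Acly (-1.38) and Acacb (-0.86), where they called 60.7% of all genes tested in this direction. The G108 effects on SP and on HP are thus not shown to differ for any member by the unweighted test.

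Ratios between members within a library do not depend on how the library is scaled, and 7 were compared. Of 35 comparisons (7 ratios in 5 contrasts), 0 passed after Benjamini-Hochberg adjustment, the smallest adjusted p being 0.3 (exact permutation tests). With 4 mice against 4, a two-sided exact permutation test cannot give a p below 0.0286, and 3 ratios reached that value, all for G108 against vehicle on SP. Of these, Acly to Fasn and Elovl6 to Fasn have the same denominator and are not independent. Fasn itself had a scaled log2 fold change of -0.79 on SP (SE 0.39, adjusted p = 0.304, limma). How often ratios between other genes reach that value was not tested.

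The ratio of Acly to Fasn, first enzyme to last, was 0.444, 0.366, 0.390 and 0.373 in the vehicle SP mice and 0.582, 1.22, 1.15 and 1.20 in the G108 SP mice. The groups did not overlap, and the geometric mean was 2.54-fold higher with G108 (exact permutation p = 0.0286, adjusted p = 0.3). On HP the ratio was 0.391, 0.445, 0.480 and 0.654 with vehicle and 0.724, 0.528, 0.706 and 1.11 with G108, 1.53-fold higher with an overlap (exact permutation p = 0.0571). Vehicle livers thus held about 0.393 ± 0.0352 Acly transcripts per Fasn transcript on SP (SD, n = 4), and G108 livers 1.04 ± 0.306 (SD, n = 4).

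Elovl6 to Fasn, with the same denominator, followed the same order. The ratio lay between 0.0769 and 0.212 in the vehicle SP mice and between 0.284 and 0.371 in the G108 SP mice, 2.22-fold higher with no overlap (exact permutation p = 0.0286, adjusted p = 0.3). On HP it went from 0.182 ± 0.0357 to 0.290 ± 0.0977 (SD, n = 4 each), 1.55-fold higher with an overlap (exact permutation p = 0.0857). Vehicle SP mouse 4 had the lowest ratio, and with each mouse left out in turn the log2 difference on SP lay between 0.84 and 1.33.

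Srebf1 to Mlxipl was 0.508, 0.672, 0.828 and 0.737 in the vehicle SP mice and 0.842, 1.15, 1.00 and 1.24 in the G108 SP mice. The lowest treated mouse was just above the highest vehicle mouse, and the difference was 1.55-fold (exact permutation p = 0.0286, adjusted p = 0.3). On HP the ranges overlapped, from 0.785 to 1.29 with vehicle and from 0.817 to 1.91 with G108 (exact permutation p = 0.486). The ratios of Acaca to Acacb and of Scd1, Me1 and Thrsp to Fasn had overlapping groups in all 4 pairwise comparisons, and the interaction had an exact permutation p of at least 0.229 for every ratio.

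**Figure D3:**
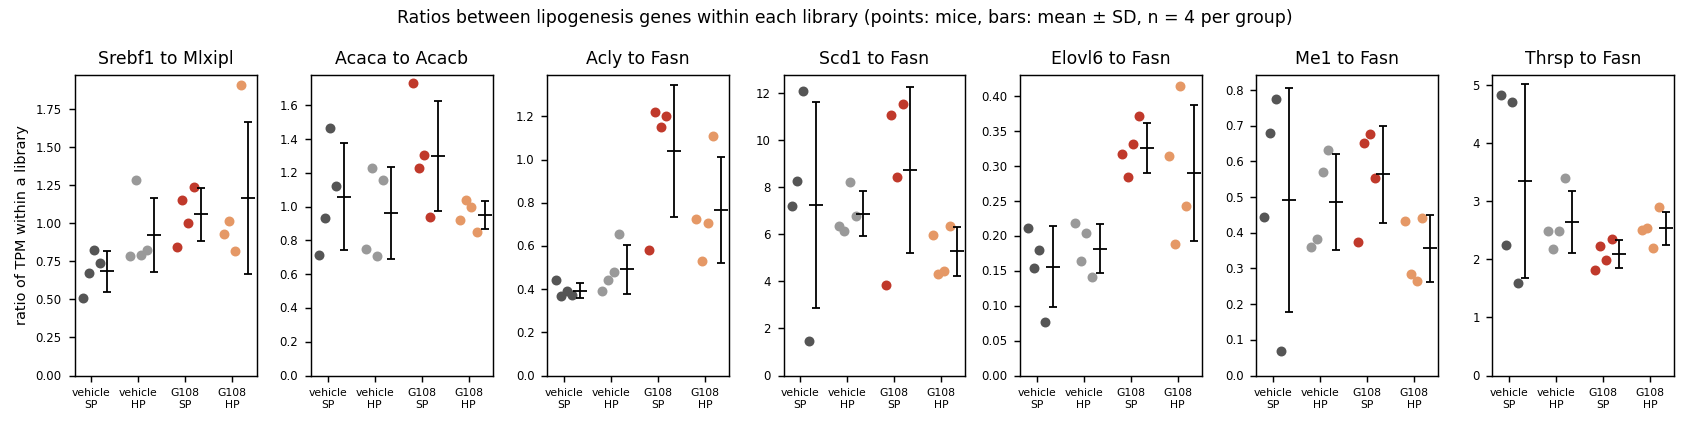
Ratio of TPM (vertical axes, from 0) between 7 pairs of members within each library, with 1 point per mouse and bars for mean ± SD (n = 4 per group). For Acly to Fasn, Elovl6 to Fasn and Srebf1 to Mlxipl, the 4 G108 SP points lie above the 4 vehicle SP points.

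The members varied between mice of the same group more than most genes. With group means removed and median-of-ratios scaling, the SD of log2 values was 0.66 for Scd1, 0.60 for Me1, 0.60 for Acly and 0.59 for Fasn, against a median of 0.21 for all genes tested. Ranked among all genes, Scd1 lay at percentile 96.1 and Fasn, the lowest of these 4, at 94.4, and 9 of the 10 members were at percentile 76.6 or above. Acaca was the exception at percentile 50.4. These SDs are on log2(TPM + 1), which also narrows the spread of low genes, and genes of like level were not compared separately. Over all 16 mice the highest value was 2.37 times the lowest for Mlxipl and 8.79 times for Elovl6. At least 455 reads stood behind each value, so that counting error did not exceed 4.69%.

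Members that were high in a mouse tended to be high together, but not all of them. Of the 45 pairs, 37 had a positive r and 8 a negative one over 16 mice with group means removed, with a median of 0.41, and 5 pairs passed (100000 permutations within groups, Benjamini-Hochberg over 45 pairs). From deposited TPM 21 pairs passed, and with scaling the number was 14 without vehicle SP mouse 4, 11 without G108 HP mouse 3, 8 without vehicle SP mouse 2 or 3, and 3 without vehicle HP mouse 2 or 4. How often pairs of other genes pass was not tested, so these counts are not shown to be particular to the members. Scd1 and Me1 were the closest pair, with r = 0.87 and rho = 0.89 (permutation adjusted p = 0.00540 and 0.0147). For this pair r was 0.90 without the 2 mice farthest from the median in Scd1. In each pair the 2 farthest mice were chosen by the first gene named only. Acly and Fasn followed, with r = 0.81 and rho = 0.82 (permutation adjusted p = 0.0190 and 0.0147, r = 0.63 without the 2 farthest). Fasn and Elovl6 had r = 0.71 and rho = 0.69 (permutation adjusted p = 0.0310 and 0.0530, r = 0.64 without the 2 farthest). Srebf1 and Fasn had r = 0.80 and rho = 0.71, which did not pass (permutation adjusted p = 0.0595 and 0.0530, r = 0.52 without the 2 farthest).

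Mlxipl ran against Scd1 and Me1. For Mlxipl and Me1, r was -0.80 and rho -0.75 (permutation adjusted p = 0.0190 and 0.0251, r = -0.65 without the 2 farthest). For Mlxipl and Scd1, r was -0.71 and rho -0.77 (permutation adjusted p = 0.0190 and 0.0147, r = -0.55 without the 2 farthest). In vehicle SP mouse 4, for example, Mlxipl was at 162.6 TPM, the highest of 16, and Me1 at 7.002 TPM, the lowest. Without that library r was -0.68 for Mlxipl and Me1 and -0.67 for Mlxipl and Scd1, and both still passed (permutation adjusted p = 0.0435 for each). These values are all with scaling. From deposited TPM of the 16 mice neither pair passed. There r was -0.54 for Mlxipl and Me1 and -0.52 for Mlxipl and Scd1 (permutation adjusted p = 0.168 and 0.119).

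The GC content of the transcripts moved with some of these pairs and not with others. It was 58.4% for Srebf1, 57.9% for Fasn and 56.6% for Mlxipl, but 47.1% for Scd1 and 45.1% for Me1. Across 16 mice, deviations followed the GC slope of the library with r = 0.68 for Srebf1, 0.68 for Fasn, 0.67 for Mlxipl and 0.60 for Acly, against -0.20 for Scd1 and -0.43 for Me1. Elovl6, which was correlated with Fasn, had the lowest GC content at 44.0% and an r of 0.45, whereas Acacb, at 56.7%, had one of 0.28. The part of GC content in the correlations between members was not tested. With that slope as a covariate beside median-of-ratios scaling, 3 members were called lower with G108 on SP: Thrsp (-1.35, adjusted p = 0.0113), Fasn (-1.03, adjusted p = 0.0396) and Mlxipl (-0.99, adjusted p = 0.0166, limma for all 3). In that fit 6.93% of all genes tested were called lower.

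**Figure D4:**
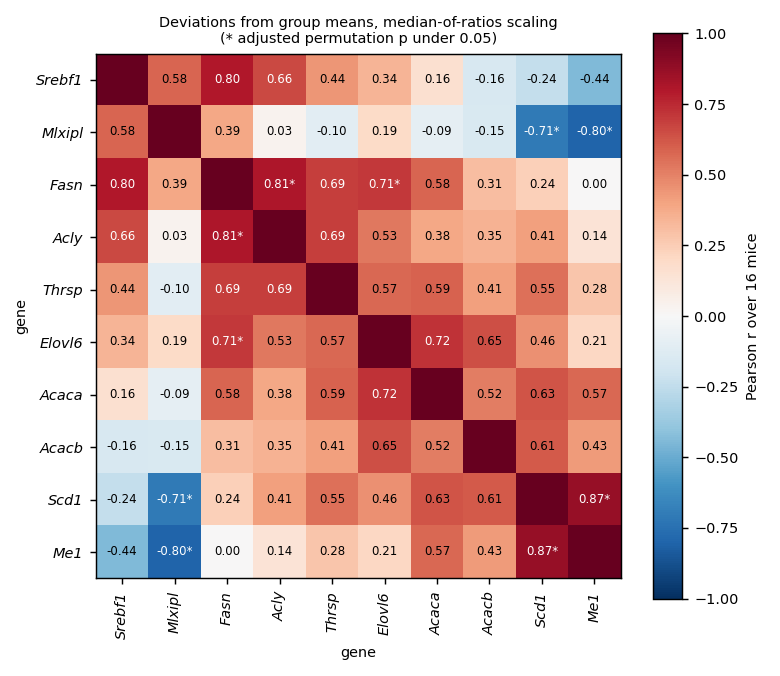
Pearson r between each pair of the 10 members (both axes) over 16 mice, from log2 values after median-of-ratios scaling with group means removed, with colour from -1 (blue) to 1 (red) and a star at adjusted permutation p under 0.05. Scd1 and Me1 are positively related to each other (0.87) and negatively to Mlxipl (-0.71 and -0.80).

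Some mice stood low or high in most members at once. In vehicle HP mouse 4, 0 of the 10 members were above their own mean over the 16 mice after scaling, with a mean log2 deviation of -0.67. In vehicle SP mouse 4 the mean deviation was 0.49, the highest of the 16, with 7 of the 10 members above their mean, and in vehicle HP mouse 2 it was 0.36 with 9 of 10 above. Among the genes outside the members whose deviations were most like the members' mean standardized deviation over 16 mice were Pomt1 (r = 0.88), Grwd1 (0.88), Tstd2 (0.83) and Tesk1 (0.83).

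Genes that feed or control the pathway were given by fixed lists. On HP, 0 genes of any of the 6 lists were called for G108 against vehicle with either scaling (limma), although 8 genes (Aacs, G6pc, Txnip, Pklr, Scap, Gpam, Cidec and Pparg) had unadjusted p under 0.05 with scaling, as did 11.3% of all genes tested. All calls below are for SP, where 77.0% of all genes tested were called higher from deposited TPM and 1.33% with scaling. Of the regulators of SREBP processing and transcription, 11 of 12 tested were called higher from deposited TPM and 0 with scaling (2 with an unadjusted p under 0.05), with a scaled median of 0.02. Rxra, the partner of the liver X receptor, had log2 fold changes of 1.13 (adjusted p = 0.00287, limma) and 0.37 with scaling, and Nr1h3, the liver X receptor alpha gene, 0.81 (adjusted p = 0.00148, limma) and 0.06. Nr0b2, which encodes the repressor SHP, was at 0.00 and, with scaling, at -0.75 (adjusted p = 0.0737, limma). On HP the smallest p values of this list were those of Scap, the escort of SREBP (-0.37 with scaling, adjusted p = 0.190, limma), and Srebf2 (-0.26).

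Among ChREBP partners and targets, 5 of 10 were called higher from deposited TPM and 1, G6pc, with scaling. G6pc, the glucose-6-phosphatase that releases glucose, stood at 39.5 ± 16.6 TPM with vehicle and 149 ± 64.2 TPM with G108 on SP (SD, n = 4 each), a log2 rise of 1.86 (adjusted p = 8.31e-04, limma), or 1.09 with scaling (adjusted p = 0.0296, limma). On HP the scaled values of G6pc and Txnip, a glucose-responsive target, were 0.89 (adjusted p = 0.123) and -0.65 (adjusted p = 0.165, limma for both).

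Of the genes for citrate, acetyl-CoA and NADPH supply, 7 of 10 were called higher from deposited TPM, and with scaling 0 were higher and 1 lower. The latter was Aacs, the cytosolic acetoacetyl-CoA synthetase that returns ketone bodies to lipid synthesis. It went from 22.05 ± 12.1 to 13.05 ± 7.58 TPM on SP and from 18.3 ± 4.30 to 8.09 ± 2.31 TPM on HP (SD, n = 4 each). With scaling its log2 fold change was -1.45 on SP (adjusted p = 0.0471, limma) and -1.21 on HP (adjusted p = 0.149, limma). Tkt and Taldo1 of the pentose phosphate pathway had 0.51 and 0.53 on SP from deposited TPM, and -0.21 and -0.22 with scaling.

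Desaturases and elongases outside the members were higher with G108 on SP in 9 of 9 tested from deposited TPM, beside 77.0% of all genes, and in 1 with scaling, beside 1.33%. That gene, Elovl3, which elongates saturated and monounsaturated chains, went from 18.3 ± 9.96 to 69.6 ± 18.4 TPM (SD, n = 4 each), a log2 fold change of 2.00 (adjusted p = 5.70e-04, limma) and 1.25 with scaling (adjusted p = 0.0450, limma). Fads1 and Fads2, the desaturases of polyunsaturated fatty acid synthesis, had 1.73 and 1.85 from deposited TPM, and 0.97 (adjusted p = 0.0704) and 1.07 (adjusted p = 0.0987, limma for both) with scaling. On HP, Elovl3 went from 25.2 ± 6.37 to 39.3 ± 6.37 TPM (SD, n = 4 each), without overlap, as for 7.67% of all genes in this direction, and with a log2 fold change of 0.64 (adjusted p = 0.481, limma).

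For fatty acid use in glycerolipids, 5 of 10 were called higher from deposited TPM and 0 with scaling, where 3 had an unadjusted p under 0.05. Those 3 were Pltp, the phospholipid transfer protein gene (-0.89, adjusted p = 0.0859, limma), Gpam, the first acyltransferase of triglyceride synthesis (-0.37), and Pparg (-0.37). On HP, Pparg had a scaled log2 fold change of -0.65 (adjusted p = 0.0610, limma) and no overlap between groups, as for 3.95% of all genes in this direction. For control of acetyl-CoA carboxylase, 7 of 7 tested were called higher from deposited TPM, beside 77.0% of all genes, and 0 with scaling, where 0 had an unadjusted p under 0.05. Mlycd, the malonyl-CoA decarboxylase, had 0.97 and 0.23 with scaling, Prkag1 0.82 and 0.10, and Prkaa1 0.41 and -0.07. Mbtps2, Scd2, Scd3, Scd4, Elovl7, Pnpla3, Prkab2, Brca1 and Hlcs were below the mean TPM of 1 and were not tested.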

How the data were processed

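Liver RNA from 16 mice was sequenced with 1 library each. The authors checked reads with FastQC 0.11.8, aligned them to GRCm38 with HISAT2 2.0.5, counted them with featureCounts and deposited TPM per Ensembl gene. DESeq2 1.36.0, which the authors ran on counts, was not used here because the values at hand are TPM. Reads recovered from the TPM were used for the voom fits. GENCODE symbols matched 55141 of 55487 identifiers. Whole reads, within 0.02, were found for 98.7% of 138931 low values.

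The 11839 genes at a mean TPM of 1 or more were tested on log2(TPM + 1), which understates changes of low genes, in limma 3.58.1 (R 4.3.3), with 1 mean per group, an intensity trend and Benjamini-Hochberg adjustment over all genes. The script was tested on simulated data. Nothing in the records pairs mice across groups. Between same-numbered mice, deviations from the group means had r from -0.57 to 0.53 (median -0.03, above 0.1 in 8 of 24 pairs). Differently numbered mice were not compared, so these values do not decide whether mice were paired. Median-of-ratios factors came from 11591 genes. The 7 ratios were tested by two-sided exact permutation, the interaction over 4900 relabellings. Alternatives covered pseudocount, filter, scaling, block, weights, voom and each mouse left out. The GC covariate and the fits without the 2 libraries that stand apart were added after seeing the data.

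The members and lists were chosen with earlier results of these data known. All members are named, and from each list the 3 genes with the smallest scaled p on SP and 2 on HP, apart from a few results that are not reported here.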

Additional observations from a re-analysis of the deposited data

Results flagged for a closer look

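Of 68 groups of 4 mice checked for a sample far from the other 3 (40 for members, 28 for ratios), 4 were marked, where chance marks about 1 in 20. Srebf1 in vehicle HP mouse 2 was at 111.5 TPM, with the other 3 mice at 64.1 to 68.3 TPM. In the same mouse the ratio of Srebf1 to Mlxipl was 1.29, with the others at 0.785 to 0.826. Acly in G108 HP mouse 4 was at 64.7 TPM, with the others at 23.4 to 29.2 TPM. The ratio of Acly to Fasn in G108 SP mouse 1 was 0.582, with the others at 1.15 to 1.22. The interaction of G108 and diet passed for 0 members by limma without quality weights and for 0 ratios by exact permutation.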

How the results depend on the processing

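For G108 against vehicle on SP, the 3 members called higher from deposited TPM (Acly, Elovl6 and Acaca) were not called, and only Thrsp was, as lower, after median-of-ratios scaling, with TPM rescaled without mitochondrial and Mup genes, with the mouse number as a replicate block and median-of-ratios scaling, by voom on the recovered reads, and without vehicle SP mouse 4 and G108 HP mouse 3 with scaling, a count of 1 in each. Acaca then changed sign without being called, at -0.091, -0.046, -0.091, -0.12 and -0.12 in that order. It was at -0.11, also not called, with the GC slope as a covariate, under which the scaled count of 1 became 3. The replicate block alone gave 4 members, adding Srebf1 (adjusted p = 0.0466, limma), and it lost no call. Quality weights gave 4 members for HP against SP with G108 and 2 for the interaction, where the count was otherwise 0. With single mice left out, the count on SP ranged from 1 (without vehicle SP mouse 1, G108 SP mouse 3 or G108 SP mouse 4) to 4, the scaled count from 0 to 1, and the other comparisons stayed at 0. The number of correlated pairs, 5 with scaling, was 21 from deposited TPM. It ranged from 3 (without vehicle HP mouse 2 or 4) to 14 (without vehicle SP mouse 4), with 11 without G108 HP mouse 3 and 8 without vehicle SP mouse 2 or 3. Without vehicle SP mouse 4 and G108 HP mouse 3, the unscaled count stayed at 3, with Srebf1 in place of Acaca. Without a filter on low values, or with a mean TPM of at least 5, which removes Acaca and Acacb, 2 members were called on SP. In the main fit 77.0% of all genes tested were called higher on SP. The shares under the block, the filters, voom, rescaled TPM and the left-out mice were not computed. Member counts under those settings are therefore not shown to be particular to the members. Of 50 log2 fold changes, 20 changed sign under median-of-ratios scaling, and of those Acaca on SP was the only one called, from deposited TPM and not with scaling. The cause of these changes was not tested. Counting error of the members was at most 4.69%.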
